A study of Homo sapiens with 8 samples.

Results

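A group of 6 genes of the short arm of chromosome 2 (2p) is described here in IMR32 cells, a neuroblastoma line in which MYCN is amplified: DDX1, NBAS, MYCNOS, CYRIA, TRIB2 and MEIS1. They were taken by name, as genes near MYCN or in the second region of 2p known to be amplified in this line, and all 6 were found among the 58787 gene rows of the deposited counts. Each of the 6 passed the filter on low counts. The label of neighbours holds for some members better than for others. By gene start, MYCNOS lay 0.0195 Mb from MYCN, DDX1 0.349 Mb, CYRIA 0.609 Mb, NBAS 0.774 Mb and TRIB2 3.22 Mb, whereas MEIS1 lay 50.5 Mb away.

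Polyadenylated RNA was sequenced from unmodified (wild-type) IMR32 cells that had been exposed for 6 h to CR31B at its IC50 (the concentration is not given in the sources used here) or to the vehicle, 0.1% DMSO. Each group had 4 libraries, described in the series as biological replicates of the single line. CR31B is a rocaglate, a class of compounds that clamp the RNA helicase eIF4A onto RNA and so block cap-dependent translation. Replicate 1 was read paired-end in both groups, and replicates 2 to 4 were read single-end.

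Gene amplification places many copies of a chromosome segment in a cell, and the genes that ride along with the selected oncogene can be transcribed from every copy. In neuroblastoma the segment around MYCN often carries DDX1 and, on some amplicons, NBAS. Copy number was not measured in these libraries, and a high RNA level does not tell how many copies a gene has.

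Library totals ran from 43687828 to 64715535 counts. All 12 markers of noradrenergic neuroblasts were at or above 1 CPM (the count scaled to library depth with TMM factors) in every library. Leukocyte, epithelial and endothelial markers summed to at most 1.09, 0.273 and 2.61 CPM, with CD3E and KRT18 at 0, and 7 mesenchymal markers summed to 36.4 to 63.8 CPM, with PRRX1 at 0. The difference of the replicate 1 pair departed from that of the other pairs in 42.5% of tested genes (edgeR interaction, adjusted p under 0.05), and it had the opposite sign for the members that passed, so member values are given for replicates 2 to 4, for replicate 1 alone and for all 8 libraries as labelled. By the mean chi-square of their counts per gene, where a smaller value means more alike, the library labelled CR31B replicate 1 was at 9.47 to 17.3 from the single-end DMSO libraries and at 94.5 to 144 from the single-end CR31B libraries. The library labelled DMSO replicate 1 was at 8.04 to 20.8 from single-end CR31B and at 88.9 to 109 from single-end DMSO. Single-end libraries of the same label were 7.28 to 21.3 apart and those of different labels 75.9 to 152. Each replicate 1 library was thus most like the other label. Both were paired-end, and they were 94.9 apart from each other. Neither an exchange of their labels nor an effect of their layout was tested as the cause. The labels were kept, and every 8-library value and replicate 1 difference depends on them. Of 16696 genes tested in replicates 2 to 4, 41.3% passed an adjusted p of 0.05 (edgeR quasi-likelihood, Benjamini-Hochberg), 23.8% as higher and 17.6% as lower with CR31B. In all 8 libraries 0% of 16518 genes passed, and 205 genes had an unadjusted p under 0.05 (edgeR) or 263 by DESeq2. Higher genes made up 57.5% of the calls under TMM scaling, 40% under upper quartile factors, 43.1% under library totals and 48.9% when GC content and length were offset. Upper quartile factors moved the median of all genes from -0.007 to -0.1 on the log2 scale.

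Among the 6 members, 3 were higher with CR31B in the single-end libraries (MEIS1, DDX1 and TRIB2) and 0 were lower, against 23.8% and 17.6% of all tested genes. NBAS, MYCNOS and CYRIA did not pass. With replicate number as a block, its numbers taken to pair the libraries, 4 of the 6 passed, 3 higher and 1 lower (NBAS), where 51.1% of all tested genes passed. The median log2 fold change of the 6 was 0.15, and that of all tested genes -0.007. In the 8 libraries as labelled 0 of the 6 passed.

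**Figure D1:**
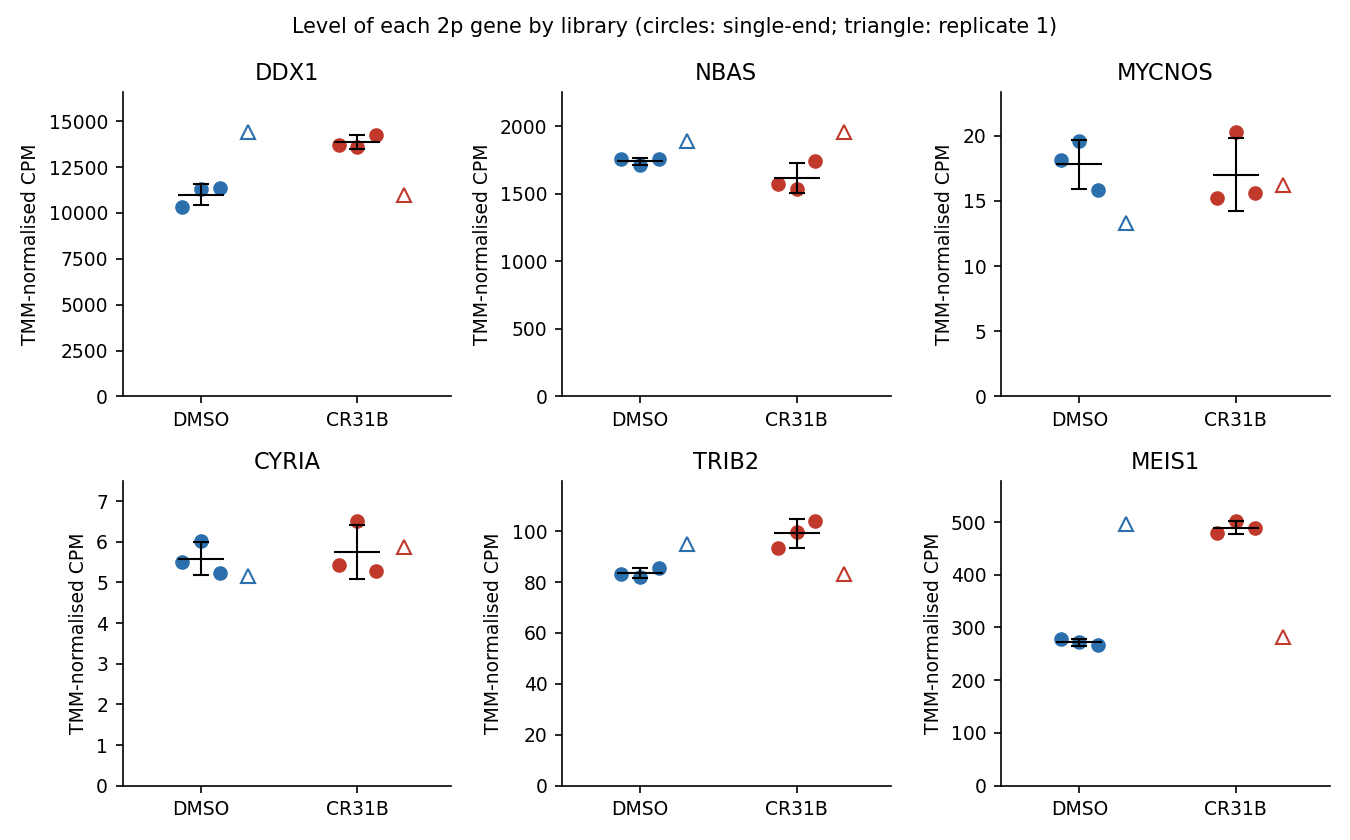
TMM-normalised CPM of each gene in every library, with circles for replicates 2 to 4, open triangles for replicate 1, and a bar with whiskers for the mean and SD of the 3 single-end libraries of a group. In DDX1, TRIB2 and MEIS1 the circles of the groups do not overlap and the triangles stand in the opposite order; in CYRIA, MYCNOS and NBAS the circles overlap.

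DDX1 (ENSG00000079785) encodes a DEAD-box RNA helicase that belongs to the tRNA ligase complex. It lies on the plus strand of chromosome 2 at 15591178 to 15631111 (GRCh38, GENCODE release 29), with 27 exonic blocks and 3833 exonic bases, none of them shared with another gene. Its transcript was the most abundant of the whole table in each of the 8 libraries. It took 1.062% of all counts (Wilson 95% interval 1.06% to 1.065%) in DMSO replicate 2, the lowest share, and 1.379% (1.376% to 1.382%) in DMSO replicate 1, the highest. Its count was 2.15 to 3.47 times that of the next gene, which was GAPDH, EEF1A1 or ACTG1 depending on the library. These intervals cover counting error only.

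Per kilobase of exon DDX1 also ranked first among 16673 tested genes with a known length, at 3262 ± 432 CPM per kb (SD over 8 libraries), which was 870.3 times the median gene and 3.28 times MYCN. MYCN, the oncogene of the amplicon, ranked 6 at 996 ± 98 CPM per kb, 266 times the median.

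In the libraries labelled CR31B, DDX1 had 10999, 13723, 13585 and 14278 CPM in replicates 1 to 4, and in those labelled DMSO 14431, 10328, 11326 and 11359.6 CPM. Every single-end CR31B library was above every single-end DMSO library, and replicate 1 had the reverse order. The single-end means were 13862 ± 367 CPM for CR31B against 11005 ± 586 CPM for vehicle (SD, n = 3 each), 1.26-fold. The log2 fold change was 0.33 ± 0.066 (SE; edgeR adjusted p = 0.00239), higher in 3 of 3 pairs. In replicate 1 the log2 difference was -0.39, and over 8 libraries the log2 fold change was 0.15 ± 0.14 (edgeR adjusted p = 0.707).

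The bases directly before the RefSeq start of DDX1 are shown because they share a short element with those of MEIS1. TRIB2, which rose as well, does not have it. Promoter sequences are from RefSeq (GRCh38.p14), were found for 5 of the 6 members (not CYRIA), and capitals mark a match, on either strand, to CCGGAAG, an ETS-type element. The DDX1 stretch is chr2:15591838-15591867 on the plus strand and the MEIS1 stretch chr2:66434875-66435124 on the plus strand.
DDX1: gaagaccaggggCCGGAAGcgcgcgccgcc
MEIS1: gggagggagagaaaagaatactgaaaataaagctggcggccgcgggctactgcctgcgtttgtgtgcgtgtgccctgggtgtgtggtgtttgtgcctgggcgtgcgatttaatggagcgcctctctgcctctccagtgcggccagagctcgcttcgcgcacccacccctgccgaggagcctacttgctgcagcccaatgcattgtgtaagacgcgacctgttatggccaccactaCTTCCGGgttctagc
The match began 18 bases before the RefSeq start of DDX1 and 15 bases before that of MEIS1. For DDX1 only 30 bases are printed, since all 250 bases before its RefSeq start are exonic in GENCODE, whose gene begins earlier. The GENCODE gene of MEIS1 also begins earlier, at 66433452. The MEIS1 stretch thus lies inside that gene, with 0 of its 250 bases exonic. Of 35116 RefSeq windows of 250 bases before a start, 8.52% hold this element. The element was chosen after the sequences were seen, and a match is a description of letters only.

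MEIS1 (ENSG00000143995) encodes a TALE-class homeobox transcription factor that pairs with PBX and HOX proteins. It lies on the plus strand of chromosome 2 at 66433452 to 66573869, with 22 exonic blocks, and 4.19% of its 10934 exonic bases overlap antisense genes (MEIS1-AS2 and MEIS1-AS3). MEIS1 had the largest difference of the 6 members. In the libraries labelled CR31B it had 281, 479, 502 and 488 CPM in replicates 1 to 4, and in those labelled DMSO 496, 278, 272 and 266 CPM. The single-end groups were far apart, and each replicate 1 library sat at the level of the other label.

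The single-end means of MEIS1 were 489.5 ± 11.6 CPM for CR31B against 272 ± 6.26 CPM for vehicle (SD, n = 3 each), 1.8-fold. Its log2 fold change was 0.85 ± 0.048 (SE; edgeR adjusted p = 1.12e-06), higher in 3 of 3 pairs. The replicate 1 difference was -0.82 on the log2 scale. Over all 8 libraries the log2 fold change was 0.45 ± 0.26 (edgeR adjusted p = 0.707). The summed noradrenergic markers moved with the same groups, from 3313 to 3381 CPM with DMSO to 4272 to 4640.4 CPM with CR31B in the single-end libraries, and their part in the MEIS1 difference was not tested.

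TRIB2 (ENSG00000071575) encodes a Tribbles pseudokinase, a scaffold that brings the ubiquitin ligase COP1 to substrates such as C/EBP factors. It lies on the plus strand at 12716889 to 12742734 in 4 exonic blocks, and shares none of its 4588 exonic bases with another gene. In the libraries labelled CR31B it had 83.3, 93.3, 99.6 and 104 CPM in replicates 1 to 4, and in those labelled DMSO 95.1, 83.1, 82 and 85.7 CPM. The single-end groups did not overlap, though they lay close together, and replicate 1 was again in the opposite order.

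TRIB2 averaged 99.1 ± 5.59 CPM for CR31B against 83.6 ± 1.87 CPM for vehicle (SD, n = 3 each) in the single-end libraries. The log2 fold change was 0.25 ± 0.054 (SE; edgeR adjusted p = 0.00429), higher in 3 of 3 pairs, and 0.15 with upper quartile factors (edgeR adjusted p = 0.0317). Replicate 1 gave -0.19, and the 8 libraries 0.14 ± 0.094 (edgeR adjusted p = 0.707). The groups did not overlap in 52.1% of all tested genes in these libraries, so the separation of 3 members of 6 is near the background.

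The upstream sequence of TRIB2 is shown for its base composition, with capitals on each match to the GC box GGGCGG on either strand, and it covers chr2:12716686-12716888 on the plus strand.
TRIB2: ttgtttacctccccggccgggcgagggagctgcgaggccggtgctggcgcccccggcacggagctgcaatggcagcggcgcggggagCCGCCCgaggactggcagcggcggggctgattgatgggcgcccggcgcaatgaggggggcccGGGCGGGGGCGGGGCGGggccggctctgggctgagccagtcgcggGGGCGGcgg
The 250 bases hold 6 matches, of which 5 are in the printed stretch, and 3 of these stand together in 1 run of capitals. Of all windows 42.6% hold a GC box. G and C made up 76.8% of the 250 bases before the RefSeq start of TRIB2, 66% for DDX1, 59.6% for MEIS1 and 45.6% for NBAS. The E-box CACGTG that MYC proteins bind is in 6.34% of windows, the CRE TGACGTCA in 1.65% and TGATGCAA, an element read by ATF4 with C/EBP, in 0.772%. Of the 4 windows of DDX1, NBAS, TRIB2 and MEIS1, 0 hold any of them. The MYCNOS window was available but was not examined by itself.

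NBAS (ENSG00000151779) encodes a subunit of the complex that tethers Golgi-derived vesicles to the endoplasmic reticulum, and it also acts in nonsense-mediated decay. It lies on the minus strand at 15166909 to 15561330, next to DDX1, with 55 exonic blocks and 8948 exonic bases. NBAS was the 19th most abundant gene by CPM and ranked 115 per kb, at 194 ± 16 CPM per kb (SD over 8 libraries), 51.8 times the median gene. In the libraries labelled CR31B it had 1958, 1568, 1532 and 1745 CPM in replicates 1 to 4, and in those labelled DMSO 1891, 1755, 1710.3 and 1753 CPM. Replicates 2 and 3 were lower with CR31B than any DMSO library, and replicate 4 lay inside the DMSO range.

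The NBAS log2 fold change in the single-end libraries was -0.11 ± 0.062 (SE; edgeR adjusted p = 0.198). In a fit that blocked on replicate number it was -0.11 ± 0.041 (edgeR adjusted p = 0.0485), and with GC and length offsets -0.3 (edgeR adjusted p = 0.00692). It also passed under upper quartile scaling (-0.2) and total counts (-0.19). NBAS was lower with CR31B in 3 of 3 single-end pairs, with log2 differences of -0.16, -0.16 and -0.0071. The replicate 1 difference was 0.05, and the 8 libraries gave -0.068 ± 0.08 (edgeR adjusted p = 0.743). The region before its start, chr2:15561335-15561584 on the minus strand, is shown to complete the set of members with high or changed levels, and it holds none of the 5 elements searched.
NBAS: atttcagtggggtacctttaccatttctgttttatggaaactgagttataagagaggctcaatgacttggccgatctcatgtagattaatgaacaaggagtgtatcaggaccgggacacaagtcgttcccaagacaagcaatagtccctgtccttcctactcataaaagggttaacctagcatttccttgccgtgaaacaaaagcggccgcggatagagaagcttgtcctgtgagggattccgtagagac

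MYCNOS (ENSG00000233718) is the RNA read from the strand opposite MYCN, from 15942249 down to 15921037, and 5.18% of its 2413 exonic bases overlap MYCN or MYCNUT. Its level, 6.94 ± 0.976 CPM per kb (SD over 8 libraries), was 0.00697 times that of MYCN. The strand setting of the counts is not given in the sources used here, apart from the word reverse in the name of the deposited table, so reads of MYCN and MYCNOS in the shared bases may not have been told apart. MYCNOS had 16.2, 15.2, 20.3 and 15.6 CPM in the libraries labelled CR31B and 13.3, 18.1, 19.6 and 15.8 CPM in those labelled DMSO, in order of replicate. The groups overlapped, with replicate 3 the highest in both.

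The single-end log2 fold change of MYCNOS was -0.064 ± 0.12 (SE; 95% interval -0.33 to 0.2; edgeR adjusted p = 0.701). Replicate 1 gave 0.29 and the 8 libraries 0.021 ± 0.13 (edgeR adjusted p = 0.956). Several other settings turned the sign of these small values. The other transcripts listed for the locus, MYCNUT (ENSG00000223850) and GACAT3 (ENSG00000236289), had 0 counts in all 8 libraries, which allows up to 0.0464 to 0.0687 CPM per library (3 counts of the total, counting error only).

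CYRIA (ENSG00000197872, earlier FAM49A) encodes a protein that binds active RAC1 and restrains the WAVE complex. It lies on the minus strand at 16549459 to 16666331, on the side of MYCN away from DDX1, and 1.54% of its 5448 exonic bases overlap another gene on the opposite strand. CYRIA was the lowest member, at 1.03 ± 0.0863 CPM per kb (SD over 8 libraries), 0.275 times the median gene. In order of replicate it had 5.88, 5.43, 6.51 and 5.29 CPM in the libraries labelled CR31B and 5.15, 5.51, 6.01 and 5.22 CPM in those labelled DMSO. The groups overlapped throughout.

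The CYRIA log2 fold change in the single-end libraries was 0.044 ± 0.12 (SE; 95% interval -0.21 to 0.3; edgeR adjusted p = 0.793). Replicate 1 gave 0.19, and the 8 libraries 0.079 ± 0.11 (edgeR adjusted p = 0.782). It rested on 215 to 406 counts per library, a counting error of 6.82% to 4.96%. Differences within the 95% interval are compatible with the single-end libraries, and the smallest detectable difference was not computed.

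**Figure D2:**
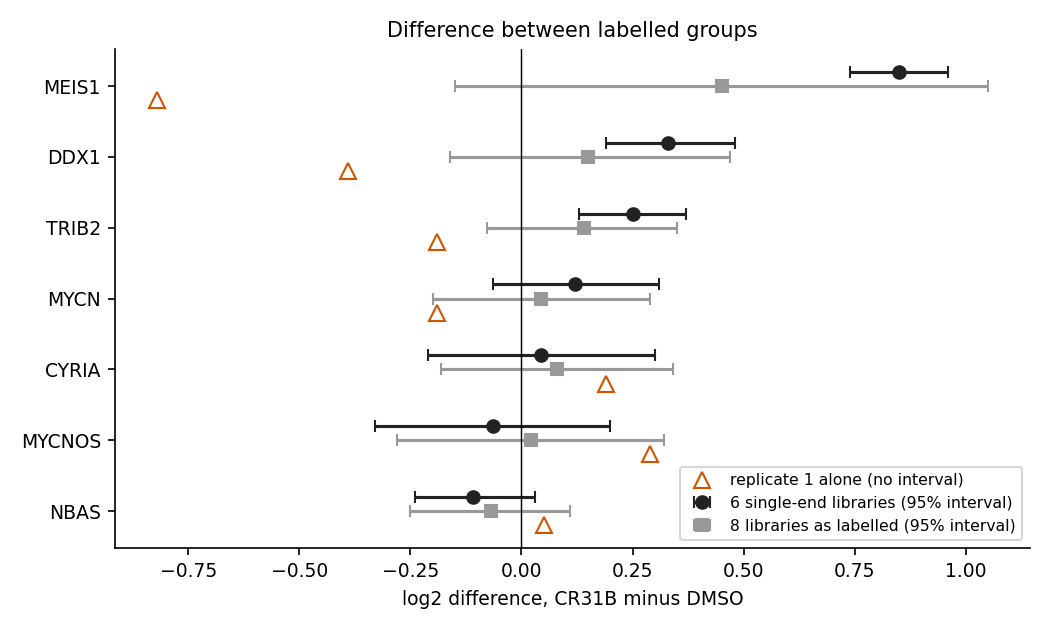
Log2 difference of CR31B minus DMSO for the 6 genes and MYCN: black circles are the 6 single-end libraries and grey squares all 8 libraries as labelled, both with 95% intervals from edgeR, and open triangles are replicate 1 alone. The black intervals of MEIS1, DDX1 and TRIB2 lie above 0, all grey intervals cross 0, and the triangles of MEIS1 (-0.82), DDX1 (-0.39) and TRIB2 (-0.19) lie below 0.

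Ordered by level per kb, DDX1 (3262) stood above MYCN (996), NBAS (194), MEIS1 (35), TRIB2 (19.8), MYCNOS (6.94) and CYRIA (1.03 CPM per kb). The ranges over the 8 libraries did not overlap between any neighbours in this order: MEIS1 spanned 24.3 to 45.9 and TRIB2, the nearest, 17.9 to 22.8 CPM per kb. MYCN itself was 0.12 ± 0.085 (SE) on the log2 scale in the single-end libraries, with an adjusted p of 0.274 (edgeR), or 0.0243 with replicate number as a block (edgeR).

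Ratios of counts within a library need no scaling, and they were compared between the groups. In the libraries labelled CR31B there were 5.62, 8.75, 8.87 and 8.18 DDX1 counts for each NBAS count in replicates 1 to 4, and in those labelled DMSO 7.63, 5.89, 6.62 and 6.48. The single-end groups did not overlap, with a log2 difference of 0.44, and replicate 1 gave -0.44. Set against MYCN, NBAS had 59.5 to 64.9 counts per 100 MYCN counts with CR31B and 66.4 to 75.7 with DMSO in the single-end libraries, and MEIS1 16.8 to 21.3 with CR31B and 10.1 to 12 with DMSO. DDX1 per MYCN overlapped between the groups, with a log2 difference of 0.21. Of 7 ratios compared, these 3 that did not overlap had an exact two-sided permutation p of 0.1, the smallest that 3 against 3 allows, or 0.233 after Benjamini-Hochberg adjustment. For the CPM of single genes the groups did not overlap in 52.1% of all tested genes. No such share was computed for ratios.

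**Figure D3:**
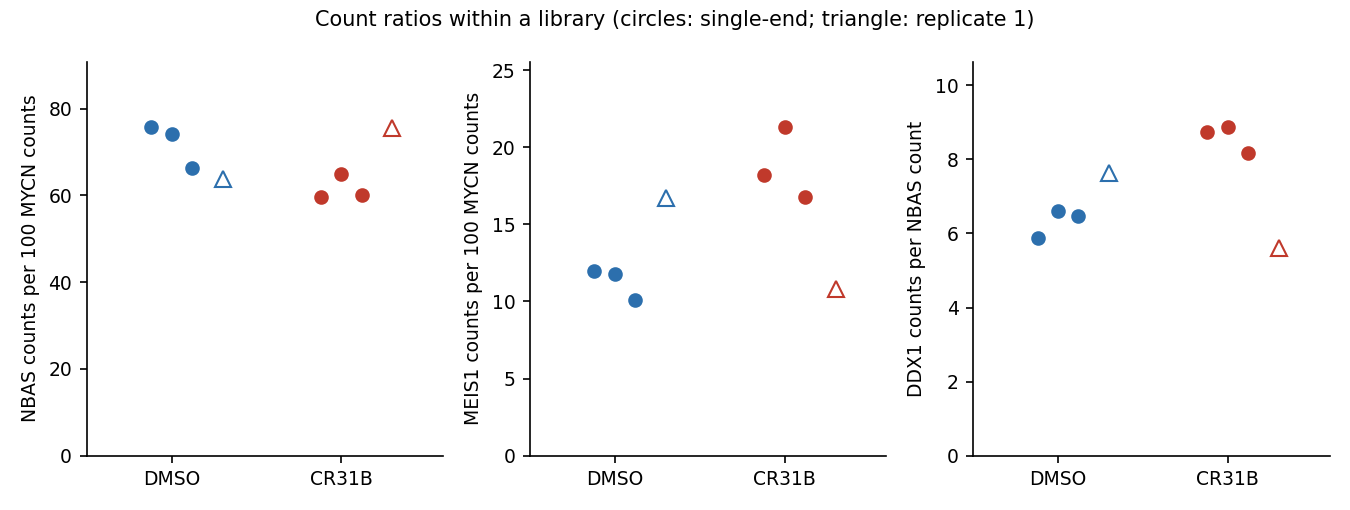
Counts of NBAS and MEIS1 per 100 MYCN counts, and counts of DDX1 per NBAS count, in each library; circles are replicates 2 to 4 and open triangles replicate 1. DDX1 per NBAS count lies between 8.18 and 8.87 in the single-end CR31B libraries and between 5.89 and 6.62 in the single-end DMSO libraries, with replicate 1 in the opposite order.

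Levels were then set against position. Of 45 gene rows that start within 2 Mb of MYCN, 13 passed the filter, and 5 of these 13 (38.5%) were above 100 CPM per kb, compared with 1.73% of all tested genes and 2.54% of the rest of 2p. The same 5 genes were 13.9% of the 36 tested within 5 Mb. Besides DDX1, NBAS and MYCN these were LRATD1, a gene 1.31 Mb away on the side of DDX1, at 257 CPM per kb, and the long intergenic RNA ENSG00000228505, 1.32 Mb away, at 216 CPM per kb. ENSG00000228505 was named after its value was seen; by CPM it ranked 6 of 788 tested long intergenic RNAs. All 5 started between 1.32 Mb before MYCN and MYCN itself, and on the other side CYRIA, at 0.609 Mb, was at 1.03 CPM per kb.

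Around MEIS1, 0 of 33 tested genes within 2.5 Mb were above 100 CPM per kb. That count rests on the edge of the window, because ANTXR1, an anthrax toxin receptor gene 2.58 Mb from MEIS1, was at 284 CPM per kb and 2322 CPM, above NBAS on both scales. ANTXR1 was named after its value was seen, and its log2 fold change was -0.077 ± 0.057 (edgeR adjusted p = 0.311). Several long intergenic RNAs just after MEIS1 were high by CPM for their kind, and were named after their values were seen. LINC01829, 0.69 Mb from MEIS1, had 94.5 to 152 CPM and ranked 4 of the 788 by mean CPM. LINC01828, at 0.653 Mb, had 34.3 to 88.3 CPM and ranked 8, against a median of 0.625 CPM over the long intergenic RNAs tested. CPM does not allow for length. Per kb of exon LINC01829 was at 43.9 and LINC01828 at 8.74 CPM per kb, ranks 961 and 5431 of 16673 tested genes. Whether these ranks follow copy number cannot be read from RNA counts.

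**Figure D4:**
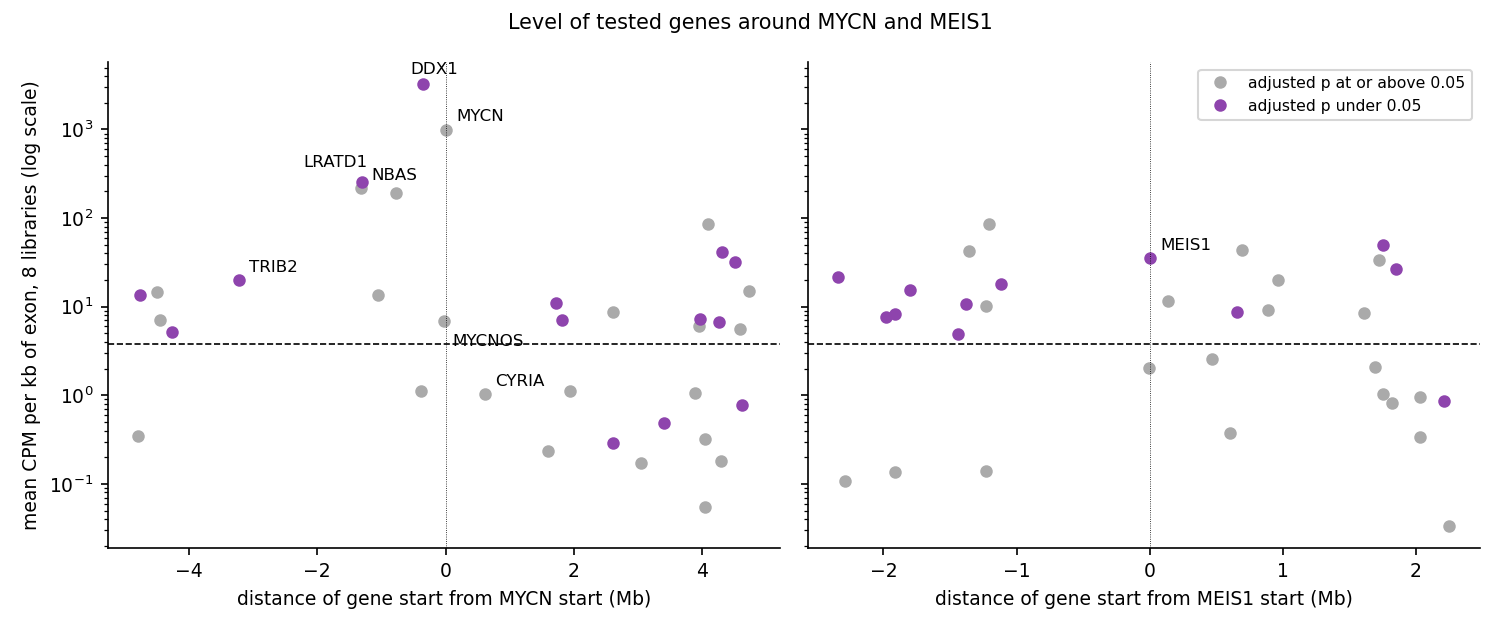
Mean CPM per kb of exon (log axis, 8 libraries) of each tested gene against the distance of its start from MYCN (left) or MEIS1 (right); purple marks an adjusted p under 0.05 in the single-end libraries and the dashed line the median of all tested genes, 3.75 CPM per kb. DDX1 (3262) and MYCN (996) stand highest, LRATD1 (257), ENSG00000228505 (216) and NBAS (194) follow on the left of MYCN, and CYRIA (1.03) lies under the dashed line.

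The differences between groups were counted in the same neighbourhoods. Within 5 Mb of MYCN, 11 of 36 tested genes (30.6%) were higher and 3 (8.33%) lower with CR31B in the single-end libraries, and within 2.5 Mb of MEIS1 9 of 33 (27.3%) were higher and 3 (9.09%) lower. These shares stood beside 23.8% and 17.6% of all tested genes, and the medians were 0.074 and 0.033 on the log2 scale. Over 8 libraries 0 genes of either window passed. The largest rises near MYCN were those of SDC1 (a cell-surface proteoglycan, log2 fold change 0.89), OSR1 (a zinc finger factor, 0.87) and RHOB (0.78). The largest falls were those of ENSG00000260331 (-1.23, at 0.235 CPM), LPIN1 (a phosphatidate phosphatase, -0.63) and HS1BP3 (-0.48).

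Near MEIS1 the largest rises after MEIS1 itself were SPRED2, an inhibitor of ERK signalling, with 0.74 ± 0.072 (SE), and SLC1A4, a neutral amino acid transporter, with 0.69 ± 0.091. LINC01828 fell by 0.66 ± 0.12, LGALSL by 0.2 ± 0.062 and CNRIP1 by 0.2 ± 0.055, so genes around MEIS1 moved in both directions. With GC and length offsets CNRIP1 was -0.14 (edgeR adjusted p = 0.0604). LRATD1, the other highly transcribed gene near MYCN, rose from 1612 ± 35.9 CPM (SD, n = 3) to 2757 ± 157 CPM (SD, n = 3), a log2 fold change of 0.78 ± 0.06 (edgeR adjusted p = 6.09e-06). In replicate 1 LRATD1 gave -0.78, SPRED2 -0.85 and LINC01828 0.9. ENSG00000260331 kept its sign in replicate 1 (-0.4).

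**Figure D5:**
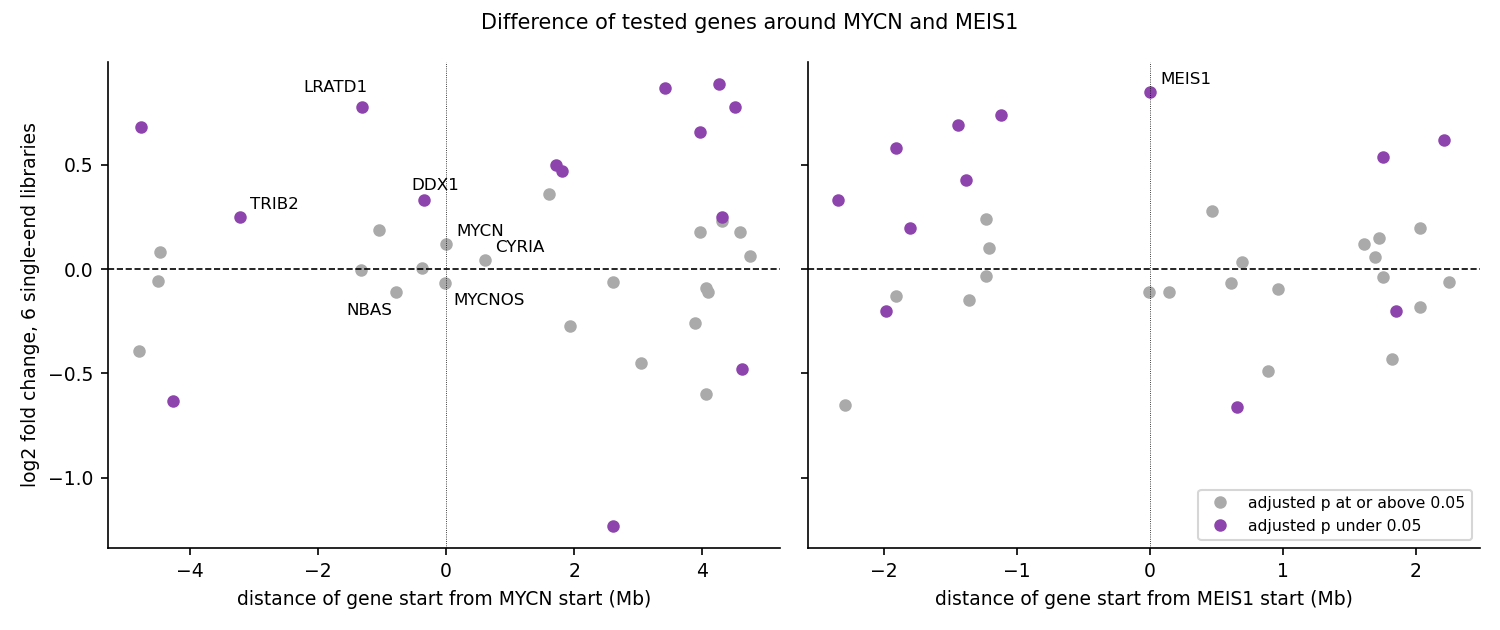
Log2 fold change in the 6 single-end libraries of each tested gene against the distance of its start from MYCN (left) or MEIS1 (right), with purple for an adjusted p under 0.05. Called genes lie above and below 0 in both windows, and NBAS (-0.11), MYCNOS (-0.064), MYCN (0.12) and CYRIA (0.044) lie close to 0.

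The lists that follow are read against the 23.8% of all tested genes that were higher, the 17.6% that were lower and their median of -0.007. By name, from a list of 51 genes of 2p24-p25, 42 were tested and 13 rose and 8 fell, with a median log2 fold change of 0.044; ROCK2, SMC6 and GEN1 rose by 0.68, 0.5 and 0.47, or by 0.4, 0.31 and 0.17 with GC and length offsets. Of 38 listed genes of 2p13-p15, 34 were tested and 16 rose and 3 fell, with a median of 0.21; PPP3R1, AFTPH, EHBP1 and VPS54 rose by 0.54, 0.58, 0.58 and 0.41, the last by 0.26 with those offsets. With those offsets 16 genes of the 2p13-p15 list passed. The rises of SERTAD2, UGP2, WDPCP, GFPT1 and AAK1 and the fall of CNRIP1 then did not pass. ETAA1 (-0.27), FBXO48 (-0.38) and ANTXR1 (-0.23) passed as lower only with the offsets. Neither list had a called gene in 8 libraries, and in replicate 1 all 21 and 19 genes called without offsets had the opposite sign.

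The partners of each member were followed through lists of complexes and families. DDX1 works in the tRNA ligase complex with the ligase RTCB, and all 7 listed members were tested. RTCB rose by 0.21 ± 0.052 (SE) along with DDX1, whereas RTRAF, C2orf49 and ZBTB8OS fell by 0.21 ± 0.055, 0.28 ± 0.056 and 0.37 ± 0.065, so 2 rose and 3 fell with a median of -0.063, beside 23.8% higher and 17.6% lower of all tested genes. With GC and length offsets RTRAF and C2orf49 fell by 0.43 and 0.45, and FAM98B passed as lower too, at -0.21 (edgeR adjusted p = 0.0223). Per kb of exon the level of DDX1 was 90.4 times that of RTCB and 207 times that of RTRAF over the 8 libraries. With upper quartile scaling RTCB had 0.11 and an adjusted p of 0.0937 (edgeR), and FAM98B -0.16 and 0.02.

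NBAS acts with RINT1 and ZW10 and with SNAREs of the endoplasmic reticulum. Of 10 listed genes 3 rose and 2 fell, with a median of 0.0047, so 5 of 10 passed where 41.3% of all tested genes did. RINT1 (0.056), ZW10 (-0.16) and the SNAREs USE1 and BNIP1 did not pass. With upper quartile scaling ZW10 passed at -0.25 (edgeR adjusted p = 0.032). The SNAREs STX18 and SEC22B fell by 0.3 ± 0.061 and 0.2 ± 0.046, SEC22B by 0.42 with GC and length offsets. UPF1, the helicase of nonsense-mediated decay, rose by 0.62 ± 0.089, SCFD2 by 0.5 ± 0.058 and KNTC1 by 0.26 ± 0.058, the last with 0.042 and an adjusted p of 0.589 under GC and length offsets (edgeR).

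CYRIA restrains the WAVE complex, which drives branched actin. Of 12 listed genes 4 rose and 2 fell, with a median of 0.092, so 6 of 12 passed, near the 41.3% of all tested genes. NCKAP1 rose by 0.31 ± 0.048, WASF1 by 0.29 ± 0.052, WASF2 by 0.23 ± 0.056 and ABI1 by 0.19 ± 0.059, while BRK1 fell by 0.36 ± 0.059 and CYFIP2 by 0.23 ± 0.072. With GC and length offsets NCKAP1 was 0.0012, WASF2 0.17 and ABI1 0.089, with adjusted p of 0.991, 0.0773 and 0.294 (edgeR), and CYFIP2 fell by 0.35. CYFIP1 (-0.26) and ABI2 (-0.22) then passed as lower, with adjusted p of 0.0145 and 0.012 (edgeR). WASF1 was then the only gene of the list to pass as higher. With upper quartile factors WASF1 was 0.19, and WASF2 (0.14) and ABI1 (0.095) did not pass. RAC1 (-0.18) and CYFIP1 (-0.21) passed as lower with those factors.

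The Tribbles list held TRIB2 with its paralogs TRIB1 and TRIB3, and COP1, DET1, CEBPA, CEBPB, AKT1, MAP2K1 and FOXO3. Of 10 tested genes 6 rose and 0 fell, with a median of 0.39, beside 23.8% higher, 17.6% lower and a median of -0.007 over all tested genes. TRIB2 had the smallest of the called rises, since TRIB1 rose by 0.84 ± 0.064 and TRIB3, a target of the ATF4 stress pathway, by 1.16 ± 0.09. CEBPB, a stress-responsive C/EBP factor, rose by 1.3 ± 0.075, FOXO3 by 0.77 ± 0.11 and MAP2K1 by 0.53 ± 0.054. CEBPA was at -0.025 (edgeR adjusted p = 0.879) and did not pass, nor did COP1, DET1 and AKT1.

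Among 11 TALE homeobox genes, MEIS1 included, 7 rose and 1 fell, with a median of 0.28, beside the same 23.8%, 17.6% and -0.007 over all tested genes. MEIS2, the paralog of MEIS1, rose by 1.33 ± 0.066 from 29.7 ± 0.274 to 74.5 ± 6.26 CPM (SD, n = 3 in each group). TGIF1 rose by 1.05 ± 0.065 and MEIS3 by 0.28 ± 0.047, and PBX3 fell by 0.31 ± 0.053. In these 5 partner lists, as in the 8 libraries as a whole, 0 genes passed when replicate 1 was included, and all 5, 5, 6, 6 and 8 called genes had the opposite sign in replicate 1.

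Across the 8 libraries the levels of DDX1, MEIS1 and TRIB2 rose and fell together, with Pearson r of log2 CPM of 0.956 for DDX1 with MEIS1, 0.911 for DDX1 with TRIB2 and 0.924 for MEIS1 with TRIB2. MYCNOS went with CYRIA (0.842) and against MYCN (-0.906). The points share library preparation, depth and treatment, and are given as a description. Among 10695 genes of at least 5 CPM, those most like DDX1 were MARCHF7 (0.997), NDUFS1 and IK (0.9965 each), and those most like MEIS1 were ACVR2A (0.9992), ZNF148 (0.9989) and IRS1 (0.9988). For TRIB2 they were CIART (0.9943), FBN2 and CLASP2 (0.9899 each). Such likeness was common, with 2319, 2516 and 1733 genes above 0.9 for DDX1, MEIS1 and TRIB2. It was rarer for NBAS, with 47 such genes and LZTFL1 (0.9645), DNAJB9 (0.9628) and SLC10A7 (0.9593) first. For MYCNOS 24 genes passed 0.9, led by KLHDC8A (0.9749), NUDT16 (0.9576) and PSMG4 (0.9547), and for CYRIA 7, among them MAPK10 (0.9435) and P2RX3 (0.9368).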

How the data were processed

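The authors deposited raw counts per Ensembl gene for 8 libraries, without normalisation and with replicates kept apart, per the file headers. STAR 2.7.2b and GRCh38 are listed in the submitters' processing notes; the counting tool, strand setting and annotation are not given in the sources used here. Of 58787 identifiers 58515 were in GENCODE release 29, which gave coordinates and exon lengths. In 1 column header, that of CR31B replicate 4, the leading letter is missing; the remaining text identified the library.

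The quasi-likelihood test of edgeR 4.0.16 (R 4.3.3; two-sided) was applied to these counts after TMM scaling and filterByExpr, with Benjamini-Hochberg adjustment over all tested genes and a threshold of 0.05, in all 8 libraries with layout as covariate and in the 6 single-end libraries. A treatment by layout interaction compared replicate 1 with the others. SE is the log2 fold change over the root of F. Pair differences use log2 CPM with a prior count of 1. Alternatives included other scalings and filters, DESeq2 1.42.0, loess offsets for length and GC content, a replicate block and leaving out libraries. The scripts were tested on simulated data.

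In the single-end libraries deviations from the group means correlated at 0.208, 0.388 and 0.157 within replicates 2, 3 and 4, so the numbers were taken to pair libraries. Libraries of different numbers were not compared in this way. The main single-end fit and the permutation test of ratios did not use the pairing, and the fit with the replicate block did. No library was a copy of another (smallest mean chi-square per gene 7.28, where 1 read pool gives about 1), but each replicate 1 library was most like the single-end libraries of the other label.

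The members and lists were chosen with earlier results of these data known. Named genes are the 6 members and MYCN, up to 6 called genes of each list by p, the 3 largest called rises and falls of each window, and the 3 genes most correlated with each member. A few genes that this rule names are not reported here.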

Additional observations from a re-analysis of the deposited data

Results flagged for a closer look

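The treatment difference of 3 members was opposite in replicate 1 and in replicates 2 to 4. The interaction of treatment with layout was -0.72 ± 0.13 (SE) on the log2 scale for DDX1, -0.44 ± 0.11 for TRIB2 and -1.67 ± 0.097 for MEIS1, with adjusted p of 0.00141, 0.00845 and 1.35e-06 (edgeR, Benjamini-Hochberg). In all tested genes 42.5% passed this test. Layout, replicate 1 and a possible exchange of the replicate 1 labels fall on the same libraries, so this test does not separate them. The spread in the test comes from the single-end libraries. For NBAS, MYCNOS and CYRIA the interaction was 0.16, 0.35 and 0.15 and did not pass.

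Replicate 1 also stood far from the other libraries of its labelled group for MEIS1. Its distance from the closest replicate, as a part of the spread of all 4, was 0.919 with CR31B and 0.926 with DMSO, above Dixon's critical value of 0.829 for 4 values. It was tested in 12 groups, and chance flags about 1 in 20.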

How the results depend on the processing

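In all 8 libraries each scaling, filter, tool and model gave 0 called genes and 0 called members, and 82 to 722 genes reached an unadjusted p of 0.05. The single-end libraries alone gave 6901 genes and 3 members, with 0.33 for DDX1, 0.25 for TRIB2 and 0.85 for MEIS1. Leaving out 1 library at a time gave 0 to 6920 genes, 0 to 3 members, 0.092 to 0.34 for DDX1, 0.091 to 0.25 for TRIB2 and 0.36 to 0.85 for MEIS1. Only the fits without CR31B replicate 1 (6920) or DMSO replicate 1 (6906) made calls. In these fits the layout term takes up the paired-end library that is left. Their treatment values thus come from the single-end libraries and are no separate check of them.

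In the single-end libraries DDX1, TRIB2 and MEIS1 passed in every setting run, at 0.24 to 0.34, 0.15 to 0.25 and 0.68 to 0.85 over the settings and 0.29 to 0.37, 0.21 to 0.29 and 0.83 to 0.87 when 1 library was left out. NBAS passed at -0.11 with the replicate block, -0.2 under upper quartile factors, -0.19 under library totals and -0.3 when GC content and length were offset, blocked or not; the cause was not tested. The replicate block changed no other member's call.

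MYCNOS changed sign in 8 libraries (-0.018 with upper quartile, -0.011 with total counts, -0.064 in the single-end libraries; -0.064 to 0.092 leaving out 1 library, negative without CR31B replicate 3, DMSO replicate 4 or either replicate 1). In the single-end libraries it was 0.036 with GC and length offsets and 0.032 with the block added (-0.21 to 0.015 leaving out 1 library, positive without CR31B replicate 2 or DMSO replicate 3). CYRIA was -0.05, -0.033, -0.11 and -0.11 with upper quartile, total counts, GC and length offsets, and those offsets with the block (-0.057 to 0.1 leaving out 1 library, negative without CR31B replicate 3). None of these passed.

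The interaction settings were chosen after seeing the data. TRIB2 missed the threshold at -0.23 with upper quartile and -0.27 with total counts, where NBAS passed at 0.37 and 0.33. MYCNOS ran from 0.27 to 0.5 leaving out 1 library and passed without CR31B replicate 3 (0.5).

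By the longest transcript the levels were 4439, 239, 12.8, 1.2 and 74.9 CPM per kb for DDX1, NBAS, MYCNOS, CYRIA and MEIS1, because that length is shorter. Smaller windows held 4 called genes of 13 tested (30.8%) within 2 Mb of MYCN and 2 of 9 (22.2%) within 1 Mb of MEIS1. The shares called were 38.9% within 5 Mb of MYCN, 36.4% within 2.5 Mb of MEIS1 and 41.3% of all tested genes.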
